A study of Mus musculus with 10 samples.

Results

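The cytoplasmic ribosome is built from ribosomal RNA and a set of small basic proteins, each usually encoded by 1 expressed gene in the mouse. The 40S subunit decodes the mRNA and the 60S subunit joins the amino acids. Genes of the proteins are named Rps for the 40S and Rpl for the 60S subunit. Their mRNAs are among the most abundant of dividing cells. They are known to be produced and translated together, because each subunit needs its proteins in fixed proportions. The 5′ end of such an mRNA typically is a C followed by a run of pyrimidines, the terminal oligopyrimidine (TOP) motif, through which the kinase mTOR and the RNA binding protein LARP1 control its translation. In the embryonic cortex, progenitors depend on ribosome supply for growth and division.

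Members were all protein-coding genes with the symbol Rpl or Rps plus digits and at most the letter a, l or x, together with Rplp0, Rplp1, Rplp2 and Rpsa. Pseudogenes, genes of mitochondrial ribosomal proteins and Rps6k kinases were left out. This gave 80 of the 43629 genes in the count tables, 31 for the 40S and 49 for the 60S subunit. They lay on 19 chromosomes, with 14 on chromosome 7 and 4 on the X chromosome. Of the 80, 77 passed the filter on low counts, next to 17039 genes tested in all. The other 3 were Rpl3l, Rpl10l and Rpl39l. The strict spelling of the rule leaves out Fau, Rack1, Rps3a1 and the paralogs Rpl7l1, Rpl22l1, Rpl36al and Rps27rt, whose values are given apart.

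RNA was sequenced from the dorsal telencephalon of E14.5 embryos of strain C57BL/6, 5 controls and 5 Dot1l-cKO. Controls carried no Cre and were Dot1l-cKO f/+, so all of them had 1 floxed allele of Dot1l, the gene of the histone H3 lysine 79 methyltransferase. The cKO embryos were Dot1l-cKO f/f and carried 1 copy of a Cre driver, so presence of the driver and loss of Dot1l cannot be told apart. Libraries were stranded and depleted of ribosomal RNA.

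Total counts ranged from 54202349 to 66556034. Values are given as CPM, counts per 1e+06 counts of the library, scaled with TMM factors. Gene counts of Dot1l were 31.4 to 41.5 CPM in controls and 20.1 to 51.7 CPM in cKO (log2 fold change 0.081, edgeR adjusted p = 0.864). They sum reads over all exons and the labels do not name the floxed part, so they did not check the genotype. Replicates 2 and 3 of both groups share the header number 57 in the normalized tables, which no source explains, and had 0.0471% to 0.492% of counts in mitochondrial rRNA, compared to 5.79% to 10.9% in the others. Dot1l-cKO replicate 2 stood apart in another way. Of 4679 genes with at least 50 CPM on average, 21 were more than 2-fold below all other libraries there, and at most 1 in any other library. One of the 21 was a member, Rps16.

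To show what the mRNAs of the set have in common at their start, windows of the promoter table of RefSeq (GRCm38.p6) were read for the 60 members it lists. A run of at least 5 pyrimidines covered the annotated start of 20 of these 60 (33.3%), compared to 3191 of all 27025 genes (11.8%). The motif CCGGAAG, the core of sites of ETS factors, was found on either strand within the 300-base window of 25 members (41.7%) and of 9.93% of all genes. The motif AAGATGG, part of sites of the factor YY1, was in 9 members (15%) and 7.28% of all genes, and TATAAA in 6 members (10%) and 15.7% of all genes. The reverse complement of the ETS motif ends a pyrimidine stretch, so it can overlap a run. The windows below run 5′ to 3′ from 45 bases before to 25 bases after the annotated start. Capitals mark the pyrimidine run over the start or the ETS motif. The first 4 are members with a run, Rps27l holds the ETS motif, and Rpl41 and Rps16, with a positive and the lowest fold change, hold neither in this window. Annotated starts need not be those used in this tissue.
Rpl14 (chr9:120571472-120571541, plus strand): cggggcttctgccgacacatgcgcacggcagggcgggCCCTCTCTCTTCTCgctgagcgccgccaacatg
Rpl28 (chr7:4792920-4792989, plus strand): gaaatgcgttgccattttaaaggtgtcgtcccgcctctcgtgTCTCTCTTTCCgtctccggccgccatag
Rps15a (chr7:118116123-118116192, minus strand): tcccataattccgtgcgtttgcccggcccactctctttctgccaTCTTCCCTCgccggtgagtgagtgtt
Rps27 (chr3:90213624-90213693, minus strand): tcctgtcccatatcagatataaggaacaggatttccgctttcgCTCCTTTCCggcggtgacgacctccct
Rps27l (chr9:66946041-66946110, plus strand): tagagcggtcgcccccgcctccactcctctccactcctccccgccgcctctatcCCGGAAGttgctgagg
Rpl41 (chr10:128549144-128549213, minus strand): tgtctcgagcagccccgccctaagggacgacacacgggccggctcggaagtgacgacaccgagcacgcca
Rps16 (chr7:28350644-28350713, plus strand): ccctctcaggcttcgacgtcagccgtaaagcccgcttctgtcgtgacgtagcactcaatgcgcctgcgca

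Ribosomal protein genes together took 3.58%, 3.86%, 4.02%, 3.68% and 3.39% of the counts in controls 1 to 5. In cKO replicates 1 to 5 they took 3.57%, 4.56%, 3.86%, 4.2% and 3.61%. The means were 3.71% ± 0.242 and 3.96% ± 0.419 (SD, n = 5), and the groups overlapped. Without Dot1l-cKO replicate 2, the library that stood apart, the cKO mean was 3.81% ± 0.289 (n = 4). Within header number 57 the means were 3.94% in controls and 4.21% in cKO, and within the other numbers 3.55% and 3.79%. Counts on genes of the mitochondrial genome changed the denominator more in some libraries than in others. With these removed, the means were 3.91% ± 0.152 and 4.16% ± 0.340 (n = 5).

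To ask whether loss of Dot1l altered the mRNA of any ribosomal protein, each gene was tested with edgeR's quasi-likelihood test. Of all genes tested, 1212 (7.11%) passed an adjusted p under 0.05, 966 (5.67%) increased and 246 (1.44%) decreased. None of the 77 ribosomal protein genes passed, in either direction. At an unadjusted p under 0.05, 2 members were found, Rplp1 and Rpl41, while 3508 of all genes (20.6%) met that threshold. DESeq2 called 0 of 79 members and limma on the normalized counts 0 of 77, both with 0 at an unadjusted p under 0.05. DESeq2 gave 2 of its 79 members no adjusted p. What share of all genes DESeq2 and limma called is not given here, so their counts have no background beside them. The control and cKO libraries overlapped for all 77 members, whereas they did not overlap for 8.34% of all genes.

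These tests also set limits on the size of a change. The median standard error of a member was 0.083 on the log2 scale, compared to 0.14 over all genes. The 95% interval of the log2 fold change lay within ±0.5 for 75 of the 77 members and within ±0.25 for 40. The 2 exceptions at ±0.5 were Rps16 and Rpl24, and outside these the intervals reached from -0.35 to 0.43. The median log2 fold change of the members was 0.048, compared to -0.0056 for all genes, and the middle 50% of the members lay between 0.018 and 0.088. The same range over all genes was -0.15 to 0.17.

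**Figure D1:**
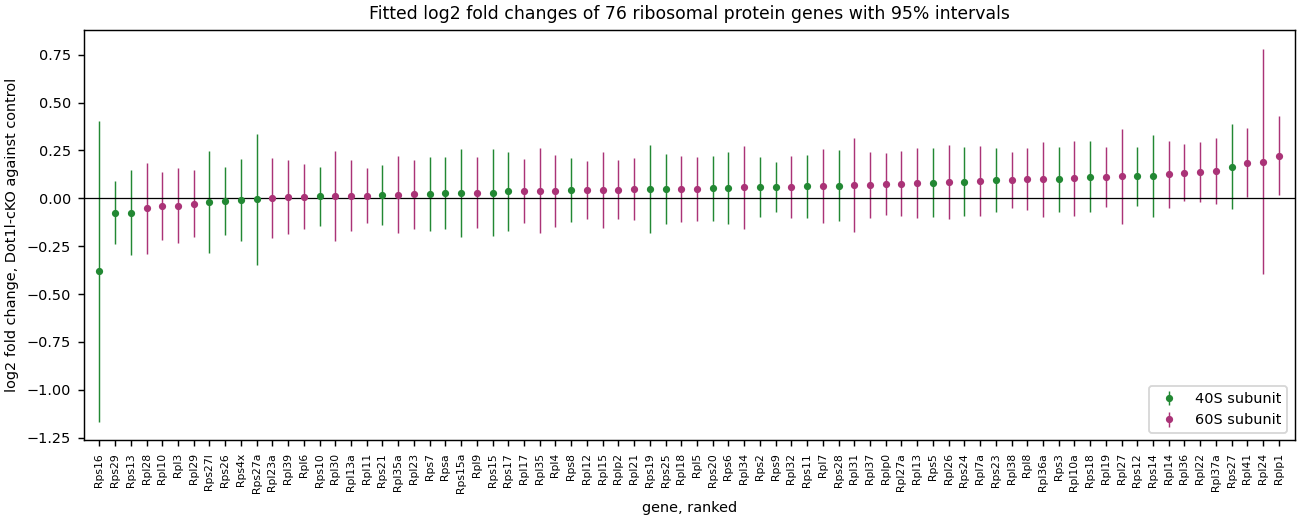
Fitted log2 fold change of Dot1l-cKO against control for 76 of the 77 members tested, ranked along the x axis; points are estimates, bars are 95% intervals, and colour gives the subunit. Rps16 on the left and Rpl24 near the right have intervals wider than ±0.5, and the others stay close to 0.

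The estimates leaned to one side without passing the test. A positive log2 fold change was fitted for 65 of 77 members (84.4%) and for 48.8% of all genes. Members are not independent, since they varied together between libraries. By subunit, 24 of 31 members of the 40S (median 0.046) and 41 of 46 of the 60S (median 0.054) were above 0. This count rested on single libraries and on the normalization. It was 43 of 77 without Dot1l-cKO replicate 2, 51 without control replicate 5 and 41 with an offset for transcript length. With DESeq2's size factors it was 54 (70.1%), with DESeq2 itself 53 (68.8%), with limma 49 (63.6%), and without TMM factors 73 (94.8%). Without Dot1l-cKO replicate 2 the median log2 fold change of the members was 0.012, and without control replicate 5 it was 0.022. Within header number 57 and the other numbers it was 0.091 and 0.045. The median over all genes moved with the normalization as well. For members and all genes it was 0.021 and -0.032 with DESeq2, and 0.018 and -0.034 with limma. Without TMM factors these medians were 0.094 and 0.038, and with the length offset 0.0048 and -0.013. Over all genes it was -0.0058 without Dot1l-cKO replicate 2 and -0.0038 without control replicate 5.

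Members varied together between libraries. For each member, the log2 CPM was compared with its mean over the 10 libraries, and the median over the 77 members was taken per library. It was 0.03, -0.018, 0.025, -0.0052 and -0.15 in controls 1 to 5. In cKO replicates 1 to 5 it was -0.0074, 0.19, -0.054, 0.14 and -0.11. Control replicate 5 held all but 1 of the members below their own mean, while Dot1l-cKO replicate 4 held 72 of 77 above it and Dot1l-cKO replicate 2 held 69. Low libraries occurred in both groups and the highest ones in cKO, and the group means of this value were -0.024 ± 0.073 and 0.031 ± 0.13 (SD, n = 5).

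Within a group, the median SD of a member was 0.126 log2 units. The same value was 0.218 over all genes and 0.151 over the 2363 genes with at least 100 CPM. After the median of each library was subtracted, it dropped to 0.0686, and 68 of 77 members had a smaller SD than before. After this step 58 members varied by less than 0.1. The members with the most remaining spread were Rps16 (0.822), Rpl24 (0.513), Rps27a (0.219), Rpl35 (0.179), Rps15 (0.178) and Rpl28 (0.173). Rps27a encodes ubiquitin fused to a 40S protein. Libraries that were high for cytoplasmic members were also high for mitochondrial ribosomal protein genes, with a median of 0.15 in Dot1l-cKO replicate 2, 0.10 in replicate 4 and -0.059 in control replicate 5.

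**Figure D2:**
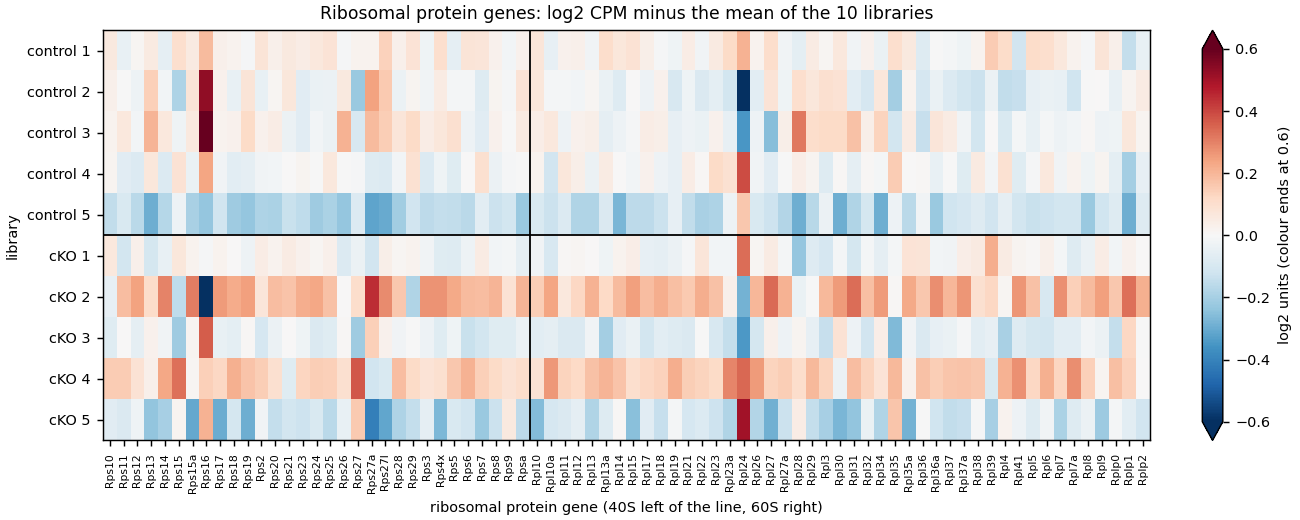
Log2 CPM of 76 of the 77 members (x axis, 40S left and 60S right of the line) minus its mean over the 10 libraries (y axis, controls above the line), in log2 units as colour. Rows tend to one colour: control replicate 5 is low, Dot1l-cKO replicates 2 and 4 are high, and Rps16 and Rpl24 depart from their rows.

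Among the proteins of the 60S, the largest estimate was that of Rplp1 (ENSMUSG00000007892), which with Rplp2 and Rplp0 forms the stalk that recruits translation factors. Rplp1 had 519.7, 578.9, 600.0, 497.6 and 467.6 CPM in controls 1 to 5. In cKO replicates 1 to 5 it had 582.7, 721.5, 624.0, 631.1 and 548.7 CPM. The highest control lay above 2 of the 5 cKO libraries, so the groups overlapped. The log2 fold change was 0.22 (SE 0.094), with edgeR's adjusted p = 0.205. With the replicate number as a block the adjusted p was 0.0683. It passed in only 2 of the alternatives, with the header number as a block (adjusted p = 0.049) and with 1 surrogate variable (adjusted p = 0.0334), fits in which 10.7% and 11.8% of all genes were called. The partners of Rplp1 in the stalk had smaller estimates, 0.074 (SE 0.073) for Rplp0 and 0.045 (SE 0.069) for Rplp2.

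Rpl41 (ENSMUSG00000093674) encodes the shortest ribosomal protein. It had 557.5, 547.7, 599.3, 573.3 and 560.1 CPM in controls 1 to 5, and 610.3, 725.0, 571.7, 730.2 and 591.3 CPM in cKO replicates 1 to 5. Dot1l-cKO replicates 2 and 4, high for nearly all members, were highest here too. The log2 fold change was 0.19 (SE 0.083, edgeR adjusted p = 0.231). Further members of the 60S with positive estimates were Rpl37a (0.14, SE 0.078), Rpl22 (0.14, SE 0.072), Rpl36 (0.13, SE 0.068) and Rpl14 (0.13, SE 0.080). Rpl22 is known for binding RNA outside the ribosome. None of them passed the test, with edgeR's adjusted p between 0.299 and 0.433.

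Below 0 were Rpl28 (-0.052, SE 0.11), Rpl10 (-0.039, SE 0.081), Rpl3 (-0.038, SE 0.089) and Rpl29 (-0.029, SE 0.080) of the 60S. Rpl3 forms part of the peptidyl transferase region and Rpl10 is added late in maturation of the subunit. Each estimate was smaller than its own error. The sign of Rpl10, Rpl3 and Rpl29 turned positive without TMM factors. Rpl24 had 1.9 to 5.2 CPM in controls and 3.1 to 5.6 CPM in cKO, far under the other members, with a log2 fold change of 0.19 (SE 0.27). Of its exon bases, 47% lie in exons of the gene model Gm28037 on the same strand, which had 0 counts in all libraries. HTSeq by default counts a read in exons of more than 1 gene for none of them. Rpl13a, with 35.4% of its exon bases in exons of Gm45713, Mir5121 and Snord33 on the same strand, had a mean of 970.7 CPM in controls. The genes overlapped differ between Rpl24 and Rpl13a, so their levels are not a like comparison. Exons were those of GENCODE vM21, whereas the authors counted reads with an Ensembl annotation. The part of the overlap in the low level of Rpl24 was not tested.

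Of the 40S, Rps27 (ENSMUSG00000090733), which carries a zinc finger, had the highest estimate. It had 106.9, 90.2, 98.6, 104.8 and 99.5 CPM in controls 1 to 5, and 102.9, 113.2, 90.8, 136.2 and 117.6 CPM in cKO replicates 1 to 5. The log2 fold change was 0.17 (SE 0.10, edgeR adjusted p = 0.407). Rps29 (-0.075, SE 0.076) and Rps13 (-0.075, SE 0.10) had the lowest estimates apart from Rps16.

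Rps16 (ENSMUSG00000037563, chromosome 7, 28350652 to 28353155 on the plus strand of GRCm38) encodes a 40S protein near the decoding site. It had 263.2, 333.9, 367.0, 272.1 and 196.4 CPM in controls 1 to 5. In cKO replicates 1 to 5 it had 229.4, 53.5, 296.2, 254.6 and 266.2 CPM. Replicate 2 of the cKO had 3084 counts, 20.1% of the median of the other 9 libraries, while 69 members were above their mean in that library. The log2 fold change was -0.38 (SE 0.36, edgeR adjusted p = 0.607). Without that library it was -0.13, within header number 57 it was -0.99, and within the other numbers 0.032.

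Genes near Rps16 were examined in the same library. Plekhg2 and Zfp36, which lie downstream on the opposite strand, were at 47.6% and 32.5% of the median of the other 9 libraries, below the lowest of them. Zfp36 had only 0.954 CPM there. Med29 and Paf1 farther downstream were at 101.9% and 108.8%, and Supt5 and Dll3 upstream were at 78.6% and 77.2%. Timm50, also upstream, was at 86.2%, and its 51.3 CPM lay just below the lowest other library at 52.3 CPM. AF357399, which lies inside Rps16 on the same strand, was at 86.0% with 0.503 CPM. The pseudogene Rps16-ps2 on chromosome 5 was at 33.8%, with 0.312 CPM compared to 0.633 to 2.26 CPM elsewhere. Reads of Rps16 and its pseudogene may be exchanged in mapping. Why the value of this library is low was not tested.

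**Figure D3:**
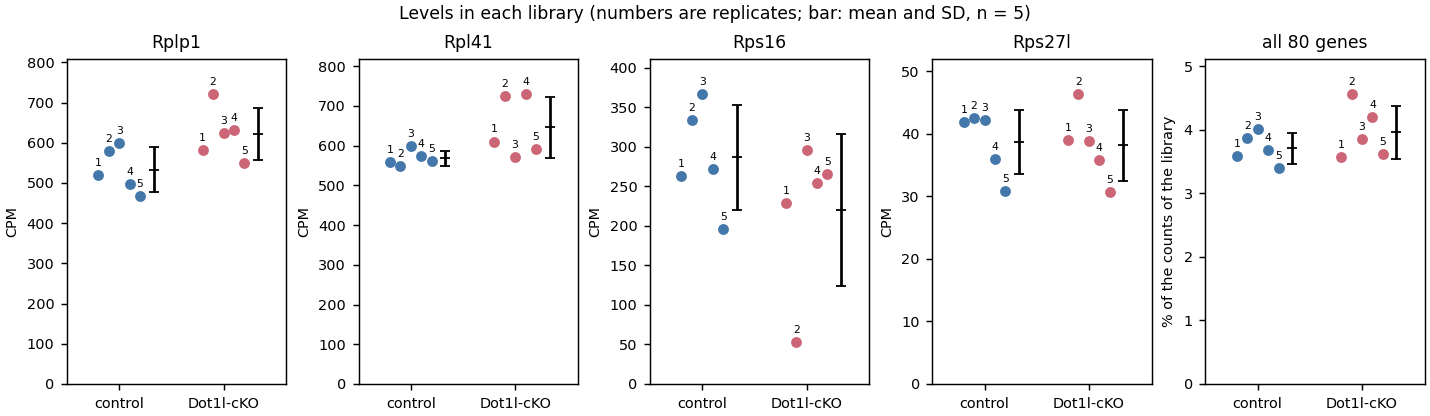
CPM of Rplp1, Rpl41, Rps16 and Rps27l and the share of counts in all 80 members in percent (y axes, starting at 0) for each library; numbers are replicates and bars give the mean and SD of 5 libraries. For Rps16, cKO replicate 2 lies at 53.5 CPM, below the 9 other libraries, and in each panel the groups overlap.

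Several members have a paralog known from testis or muscle. Rpl3l, the muscle counterpart of Rpl3, had 0 counts in all controls and at most 2 in a cKO library, and Rpl10l, a testis paralog of Rpl10, had 0 in all 10 libraries. A count of 0 allows up to 3 counts, and Rpl3 and Rpl10 had mean levels of 841.3 ± 47.8 and 560.2 ± 25.5 CPM in controls (SD, n = 5). Rpl39l had at most 8 counts in a library, while Rpl39 had 242.7 ± 16.9 CPM in controls and 244.1 ± 28.7 CPM in cKO (SD, n = 5). No fold is given for these 3 paralogs.

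Rps27l, which is known as a target of p53, was expressed. It had 41.9, 42.5, 42.3, 36.0 and 30.9 CPM in controls 1 to 5 and 39.0, 46.4, 38.9, 35.8 and 30.7 CPM in cKO replicates 1 to 5. The log2 fold change was -0.022 (SE 0.12, edgeR adjusted p = 0.945), and its interval ran from -0.29 to 0.24. It turned positive, to at most 0.027, with GC offsets, without TMM factors and within header number 57. Replicate 5 was lowest in both groups.

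Of the 4 X-linked members, Rps4x had 922.6 ± 60.9 CPM in controls and 916.7 ± 130 CPM in cKO (SD, n = 5), with a log2 fold change of -0.0093 (SE 0.098). Rpl36a had 220.9 ± 16.3 and 236.6 ± 27.3 CPM, with a log2 fold change of 0.099 (SE 0.089). Rpl39 had an estimate of 0.0086 (SE 0.088). The signs of Rps4x and Rpl39 changed when the level of Xist, a marker of the inactive X chromosome, was a covariate, to 0.009 and -0.013.

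Compared per length of the annotated main mRNA, Rps29, Rplp1, Rpl41, Rplp0 and Rps12 had the highest levels in controls, 1219 ± 76.5, 1068 ± 111, 1043 ± 36.6, 1009 ± 28.8 and 972.5 ± 45.7 CPM per kb (SD, n = 5). From Rplp1 to Rps12, neighbours in this order differed by less than the larger of their SDs. At the low end were Rpl24 with 5.64, Rps27l with 77.6, Rps15a with 96.6, Rps20 with 126 and Rpl22 with 149 CPM per kb. The annotated mRNAs of Rps15a and Rps20 are 5130 and 3706 bases long, so their low values per length depend on the annotation.

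Genes of ribosomal proteins outside the spelling rule were similar. Rack1, a scaffold on the 40S, had 1021 ± 40.9 CPM in controls and 1093 ± 102 CPM in cKO (SD, n = 5), with a log2 fold change of 0.098 (SE 0.075). Rps3a1 had 708.8 ± 50.3 and 721.1 ± 71.6 CPM, with 0.025 (SE 0.083). Rpl36al (0.095, SE 0.084), Rps27rt (0.064, SE 0.093) and Fau (0.060, SE 0.085) were also above 0. Rpl7l1 had -0.011 (SE 0.067), and Rpl22l1, a paralog of Rpl22 known to be regulated by it, had -0.16 (SE 0.23). None of these genes passed edgeR's test. Of 257 ribosomal protein pseudogenes, which took 0.0109% to 0.0203% of the counts, 47 were tested and 0 passed, with the smallest p for Rpl31-ps8, Rps16-ps2 and Rpl38-ps2 (log2 fold changes -0.42, -0.69 and -0.53).

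Other steps of ribosome production and use were examined with lists of genes. Of 76 mitochondrial ribosomal protein genes tested, which serve the separate ribosome of that organelle, 0 passed edgeR's test, and their median log2 fold change was 0.024. Mrpl48 was closest (0.27, SE 0.076, edgeR adjusted p = 0.0544). It passed with DESeq2 (adjusted p = 0.0408), with 1 surrogate variable, with GC or length offsets, without TMM factors and without control replicate 5, with adjusted p from 0.0316 to 0.0484. It was followed by Mrpl2 (0.18) and Mrps2 (-0.16). Of 41 initiation, elongation and termination factors, 0 passed edgeR's test, with a median of -0.044. The smallest p were those of Eif4g2 (-0.28, SE 0.11), Gspt1 (-0.21, SE 0.092) and Eif5 (-0.32, SE 0.14). Without Dot1l-cKO replicate 1, Eif5 passed (edgeR adjusted p = 0.044). Without TMM factors the median of this list was 0.0045.

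Among 55 factors that process pre-rRNA and assemble subunits, 1 decreased and 0 increased, compared to 1.44% and 5.67% of all genes. The median log2 fold change was -0.090, compared to -0.0056 over all genes. A negative estimate was found for 46 of the 55 and a positive one for 9, while 48.8% of all genes had a positive one. Without TMM factors the median over all genes moved to 0.038, so signs depend in part on the normalization. How this count changes in the alternatives is not given here. Heatr1, which takes part in transcription and processing of pre-rRNA, had 106.7, 106.6, 106.1, 100.6 and 95.9 CPM in controls and 82.4, 89.4, 88.9, 84.9 and 84.3 CPM in cKO. All cKO libraries lay below all controls. It fell by 0.26 on the log2 scale (SE 0.057, edgeR adjusted p = 0.0182), and did not pass without TMM factors (adjusted p = 0.151). Leaving out Dot1l-cKO replicate 1, control replicate 1 or control replicate 2 gave an adjusted p of 0.053, 0.0554 and 0.053. Imp4 (-0.20, edgeR adjusted p = 0.0749) and Pwp2 (-0.19, edgeR adjusted p = 0.132), components of the small subunit processome, did not pass edgeR's test. Imp4 passed with DESeq2 (adjusted p = 0.00196), limma (0.0428), DESeq2 size factors (0.0407), 1 surrogate variable (0.0384) and without control replicate 5 (0.0339). Pwp2 passed with DESeq2 (adjusted p = 0.0311) and with the replicate block and GC offset (0.0432). DESeq2 called 4 genes of this list and limma 2. The shares of all genes that these 2 tools called are not given here, so these counts have no background beside them. With the replicate number as a block in edgeR Utp20 passed as well (adjusted p = 0.0313). That fit called 1604 of all genes, compared to 1212 without the block.

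Of 27 tested regulators of ribosomal protein genes and mRNAs, 2 decreased and 0 increased, compared to 1.44% and 5.67% of all genes. The list was chosen with earlier results known, and the study had already reported Igf2bp1 as decreased, so this count is not an independent result. The median log2 fold change of these regulators was -0.11. Igf2bp1, an mRNA binding protein of embryonic tissues, had 149.8, 139.3, 128.5, 121.2 and 103.1 CPM in controls 1 to 5, and 49.1, 39.2, 56.4, 49.6 and 58.2 CPM in cKO replicates 1 to 5. The groups did not overlap, and it fell by 1.35 on the log2 scale (SE 0.12, edgeR adjusted p = 0.00018). Mycn, a transcription factor known to activate genes of ribosome production, had 113.8, 126.9, 138.8, 110.9 and 111.8 CPM in controls and 88.5, 89.5, 100.6, 95.3 and 93.9 CPM in cKO. It fell by 0.36 (SE 0.077, edgeR adjusted p = 0.0161), but did not pass without TMM factors (adjusted p = 0.0936). Myc, its relative, had a log2 fold change of -0.58 (SE 0.21, edgeR adjusted p = 0.128), and DESeq2 called it (adjusted p = 0.0402).

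**Figure D4:**
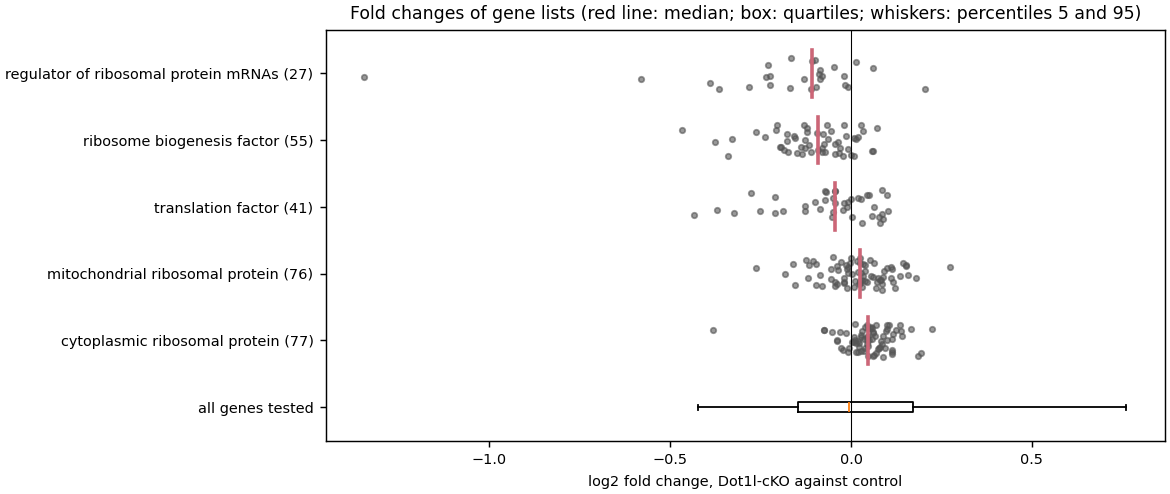
Log2 fold changes of Dot1l-cKO against control (x axis) for the genes of 5 lists, 1 point per gene with the number tested in brackets; the box gives the quartiles and the whiskers the percentiles 5 and 95 of all 17039 genes. Medians are 0.048 for cytoplasmic and 0.024 for mitochondrial ribosomal protein genes, and negative for translation factors, biogenesis factors and regulators, where Igf2bp1 is the point at -1.35.

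The tissue is a mixture of cells, and in bulk RNA fewer cells of a type and less RNA per cell cannot be told apart. Markers of dorsal neurons and progenitors were abundant, with summed levels of 4101 to 5858 CPM and 2167 to 2724 CPM in controls. Of 9 progenitor markers, Slc1a3, Vim and Fabp7 increased (log2 fold changes 0.43, 0.53 and 0.62) and Pax6 decreased (-0.36). The other 5 had negative estimates that did not pass edgeR's test, from -0.16 (Nes) to -0.52 (Emx2), and the median of the list was -0.20. Pax6 did not pass without TMM factors, with the length offset, with Xist as a covariate or within either part of the header numbers. Nor did it pass when control replicate 1, 2 or 4, or Dot1l-cKO replicate 1, 2, 3 or 5, was left out. All 7 microglia markers increased, from a summed level of 38.6 to 62.4 CPM in controls to 79.3 to 114.1 CPM in cKO. With the replicate number as a block Aif1 did not pass (adjusted p = 0.073). Those with the smallest p were P2ry12, Fcrls and Cx3cr1 (log2 fold changes 1.10, 1.19 and 0.93). None of 10 erythroid, 6 endothelial, 7 mesenchyme and meninges, 5 choroid plexus and hem, 8 dorsal neuron or 7 ventral telencephalon markers passed edgeR's test. With that block Neurod2, a dorsal neuron marker, passed (log2 fold change 0.34, adjusted p = 0.0206). DESeq2 and the edgeR fits with 1 surrogate variable, the GC offset, the header-number block, no TMM factors or without Dot1l-cKO replicate 2 also called 1 dorsal neuron marker, and the replicate block with the GC offset called 2. With 1 surrogate variable, and without control replicate 3, 1 ventral marker passed as decreased. The ventral markers had a median of -1.75, with summed levels of 36 to 246 CPM in controls and 3.54 to 77.5 CPM in cKO. Summed levels in controls and cKO were 599 to 2555 and 911.6 to 2249 CPM for erythroid, 127.3 to 229.8 and 115.3 to 267.8 CPM for endothelial, 25.3 to 857.9 and 31 to 785.9 CPM for meninges, and 31.9 to 652.4 and 39.5 to 210.8 CPM for choroid plexus markers. The part of these cell types in the values of ribosomal protein genes was not tested.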

How the data were processed

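The authors trimmed reads with Trim Galore 0.2.8, mapped them to mm10 with TopHat2 2.0.9 guided by an Ensembl annotation, and counted them by strand with HTSeq 0.6.0. The deposited values are whole-number counts per gene. The other deposited tables hold the same counts divided by size factors of DESeq2 1.6.1, a signal that is not CPM. Symbols came from GENCODE vM21 for 42548 of 43629 identifiers, and those without a symbol held 0.268% of the counts. The study compared littermates, each a different animal. Replicate numbers were used as pairs only in the alternatives with a replicate block, and the main test was unpaired. The deviations of same-numbered libraries from the group means correlated over all genes (0.229, 0.349, 0.145, 0.597 and 0.131 for numbers 1 to 5). Same-numbered libraries also share a header number, and correlations between differently numbered libraries were not computed. These values therefore cannot tell a pair from a shared header number. Replicates of a group differed by a chi-square per degree of freedom of at least 30.8, so none was a library deposited again.

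All genes were fitted with edgeR 4.0.16 in R 4.3.3 (TMM, filterByExpr, quasi-likelihood test, Benjamini-Hochberg adjustment, threshold 0.05, no covariate). A log2 level is log2(CPM + 0.1). Standard errors derive from the F statistic. On simulated counts of 16905 genes, 97 genes were changed by 0.5 and 99 by 1 on the log2 scale. The test recovered 18.6% and 62.6% of these, and 1.23% of the calls were false. Simulated counts were drawn independently for each gene and library, whereas members varied together between libraries. Members also had a smaller median standard error than all genes (0.083 and 0.14). The simulated shares therefore do not carry over to the members. Reads were counted without molecular identifiers, so counting limits cover counting error only. The members and lists were chosen with earlier results of these data known. Named were members past the threshold, the 8 highest and 8 lowest fold changes, members ending in l with their partner, the 5 highest and 5 lowest levels per length, X-linked members, and the 3 smallest p of each other list, of which marker lists are named only where a gene passed. Pax6, Nes, Emx2, Aif1, Utp20 and the tallies of the alternatives were added after their values were seen, and some items that the rule names are not reported here. Alternatives were DESeq2 1.42.0, limma 3.58.1, sva 3.50.0, other normalizations, filters, offsets, covariates and blocks, and each library left out. Exon-level reads were not analysed here.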

Additional observations from a re-analysis of the deposited data

Results flagged for a closer look

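In groups of 5 libraries, a value was picked out when the gap of the highest or lowest library to the nearest other exceeded Dixon's critical value at 95% as a share of the group's range. Of 50 groups of values examined, 3 met this, and chance gives about 1 in 20. Rps16 in Dot1l-cKO had a ratio of 0.851, through the low value of replicate 2. Rps20, a 40S protein, in controls had a ratio of 0.742, where replicate 5 with 415.5 CPM lay below the range of 468.9 to 489.1 CPM of the others. The median deviation of the members in controls had a ratio of 0.732, again through replicate 5, at -0.15. The causes were not tested.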

How the results depend on the processing

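No member passed in any alternative but 2, with 1 surrogate variable and with the header number as a block, in which 1 member passed, Rplp1. The median log2 fold change of the members stayed positive in every alternative run, from 0.0048 with the transcript length offset to 0.094 without TMM factors. The median over all genes was -0.013 and 0.038 in these fits. With 1 library left out, the median of the members was 0.012 to 0.078. This median was 0.045 with the replicate number as a block, which changed no call among the members. The number of members with a positive estimate was 41 with the transcript length offset, and 43 to 70 with 1 library left out, lowest without Dot1l-cKO replicate 2. Adding Fau and further genes outside the spelling rule, or also Rps3a1 (chosen after seeing the data), left 0 members called. Estimates near 0 changed sign without being called. Without TMM factors, Rpl10 had 0.0059, Rpl29 0.014, Rpl3 0.0060, Rps27l 0.024 and Rps4x 0.038. Within header number 57, Rpl10 had 0.013, Rps27l 0.027, Rps4x 0.071 and Rpl31-ps8 0.033. Within the other header numbers, Rpl28 had 0.070, Rpl29 0.023, Rpl39 -0.030, Rps15a -0.035 and Rps16 0.032. Rpl39 had -0.015 with DESeq2 size factors, -0.019 with DESeq2, -0.013 with Xist as a covariate, -0.024 with limma, -0.0035 without mitochondrial genes, -0.0043 without the filter and -0.048 with the length offset. Rps15a had -0.0098 with limma, Rps4x 0.0090 with Xist, and Rps27l 0.019 with the GC offset and 0.020 with the replicate block and that offset. With 1 library left out, Rpl10 ranged from -0.085 to 0.0078, Rpl28 from -0.12 to 0.027, Rpl39 from -0.049 to 0.049, Rps15a from -0.055 to 0.091, Rps27l from -0.10 to 0.040 and Rps4x from -0.085 to 0.043. The causes were not tested.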
